A study of Hordeum vulgare with 12 samples.

Results

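The genes described here form a stretch of barley chromosome 5H, from HORVU.MOREX.r3.5HG0430020 to HORVU.MOREX.r3.5HG0480000, in which many of the largest differences between the mutant blf13 and its wild type Bonus lie. The stretch holds every gene with an ID number from 0430000 to 0480000 on 5H that passed a filter on low counts by genotype. Of 5001 IDs in that range, 1389 (27.8%) passed, out of 22437 genes tested in the whole data set. The other 3612 IDs failed the filter, 2366 of them with no count in any library, and the highest sum over 12 libraries among them was 152 counts. ID numbers of the MorexV3 gene set run along the chromosome. A gene is therefore given by its place, counted from 1 at the first tested gene of the stretch to 1389 at the last, and no coordinates or gene names were attached to the IDs in the files used.

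RNA was sequenced from the basal 1 cm of the shoot, with leaf 1 taken off, of plants 7 days old. There were 4 genotypes: blf13 (in the Bonus background), Bonus, nal1 (in the Sebastian background) and Sebastian. Each had 3 biological replicates, and each replicate was a pool of 6 plants. By the series title, blf13 carries a gain-of-function allele of the orthologue of rice NARROW LEAF1. The labels do not say what kind of allele nal1 is. Effects of an allele and of any other genetic difference between a mutant line and its wild type cannot be told apart.

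Barley is a diploid grass with 7 chromosomes, numbered with an H. NARROW LEAF1 is known in rice as a protease-like protein that sets leaf width and vein number. Barley cultivars are known to differ in which genes they carry and express, and genes close together on a chromosome are usually inherited together. Reads of all 4 genotypes were counted in the genes of Morex, another cultivar, so a gene that Morex lacks was not counted. Levels are in CPM, the share of a library's gene counts after scaling of library sizes with TMM factors. A mean level in a bulk tissue piece does not tell fewer expressing cells from less RNA per cell.

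The libraries held 14831979 to 62995658 counts in genes and 934266 to 4013373 in the IDs of the stretch. Between 1347 and 1369 of the 1389 genes had a count in a given library. One library stood apart in its reads: blf13 replicate 2 had 29.8% unmapped and 4.01% multimapping reads, against 10.3% to 17.8% and 1.40% to 2.18% in the others. Results that rest on it are given with and without it. The tissue could not be checked against marker genes, since the IDs carry no names.

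Most genes of the stretch stood at nearly the same level in blf13 and Bonus. The median log2 fold change was −0.01, the median size of change 0.14 on the log2 scale, and 1304 of 1389 genes (93.9%) lay within 2-fold. Over all tested genes the median size was also 0.14 and 96.1% lay within 2-fold. Set against these were 19 genes with a large change. A large change was defined as a fitted difference of at least 4-fold, no overlap between the 3 blf13 and 3 Bonus libraries, and a mean of 1 CPM or more in the higher genotype. There were 9 large gains and 10 large losses in blf13. Over all tested genes the same rule took 57 genes (0.254%), with 39 gains (0.174%) and 18 losses (0.0802%). The rest of 5H had 3 gains and 0 losses among 2181 genes, and no other chromosome had more than 8 gains or 3 losses. The stretch was chosen for these changes, so its share describes the choice and supports nothing. At a 2-fold limit the stretch had 15 gains (1.08%, against 0.602% of all tested genes) and 10 losses (0.720%, against 0.232%). At an 8-fold limit it had 8 gains (0.576%, against 0.111%) and 8 losses (0.576%, against 0.0579%).

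**Figure D1:**
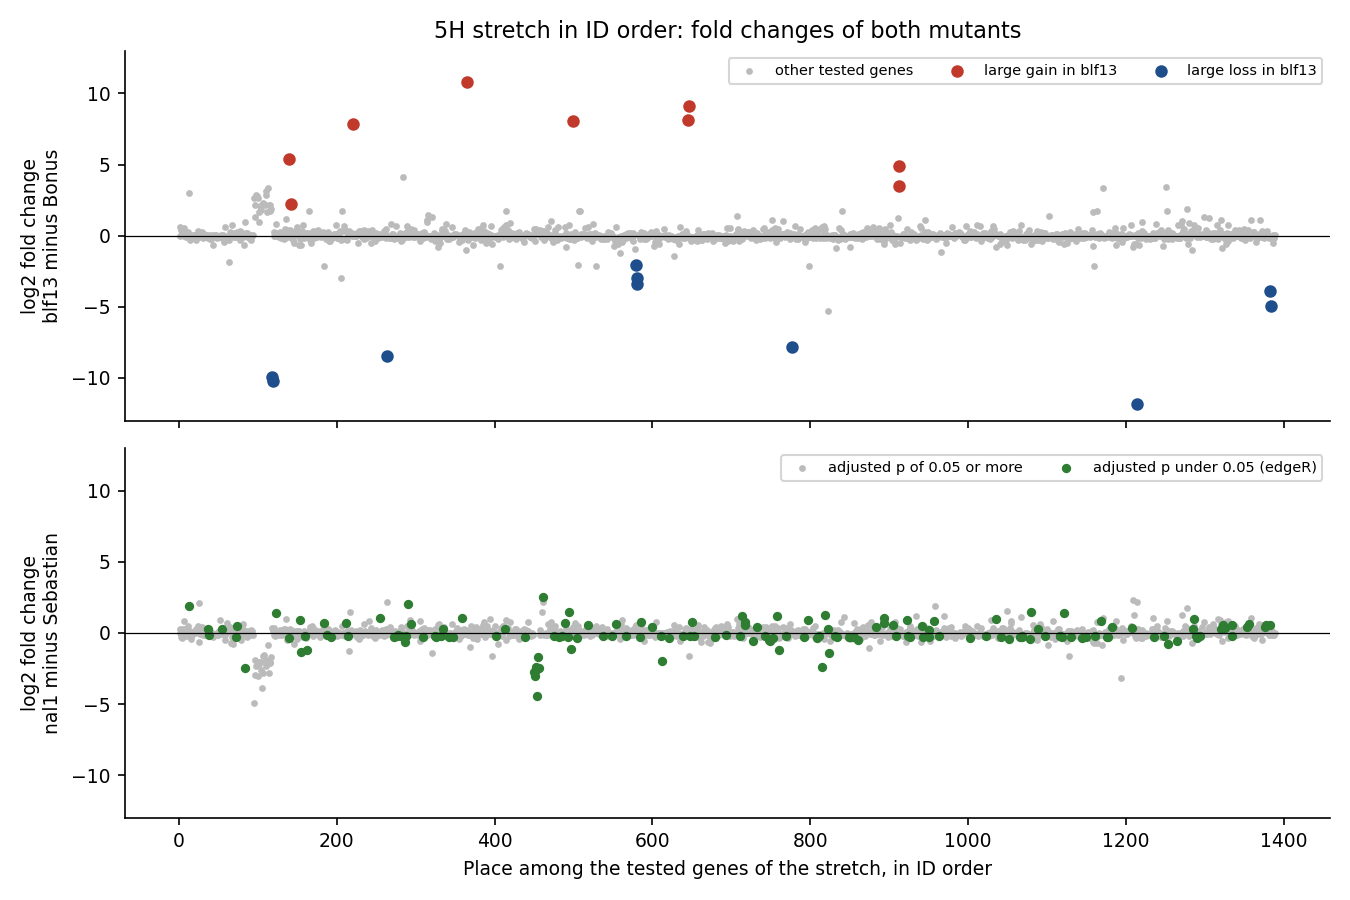
Fitted log2 fold changes of the 1389 tested genes of the 5H stretch in ID order, for blf13 minus Bonus (top) and nal1 minus Sebastian (bottom), 1 point per gene. The 9 large gains and 10 large losses of blf13 stand apart from a flat background, and the raised group at places 95 to 117 in the top panel lies low in the bottom panel.

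At the limits of the stretch there was no step. The first gene inside it averaged 2.74 ± 0.32 CPM in blf13 and 1.84 ± 0.46 CPM in Bonus, and the gene just before it 0.537 ± 0.10 and 0.512 ± 0.27 CPM (SD, n = 3 each). The last gene inside averaged 5.24 ± 0.19 CPM in blf13 and 5.19 ± 0.75 CPM in Bonus, and the gene just after it 1.05 ± 0.089 and 1.25 ± 0.29 CPM (SD, n = 3 each). The nearest large changes outside were gains that lay 193 tested genes before the start and 332 after the end. On the size of change, the genes just inside the 4-fold limit were places 579 (log2 fold change −2.04) and 142 (2.21). Just outside it, among genes that met the other conditions, were places 1158 (1.66) and 707 (1.41).

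The large changes lay from place 118 to place 1384, with gains and losses interleaved along the way. In ID order the first were a pair of losses at places 118 and 119, followed by gains at 140, 142 and 221. A loss at 264 came next, then gains at 365 and 500, losses at 579, 580 and 581, and gains at 645 and 646. After them came a loss at 777, gains at 912 and 913, and losses at 1214, 1383 and 1384. The widest gap, between 913 and 1214, held 300 tested genes without a large change. When the range of IDs was divided into 10 equal bins, 2 had none, the first and the eighth, and the second held the most, with 3 gains and 2 losses among 125 tested genes.

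The most abundant gene with a large gain was HORVU.MOREX.r3.5HG0437300, at place 142. It had 28.2, 32.5 and 26.4 CPM in the 3 blf13 libraries, against 6.27, 6.05 and 6.55 CPM in Bonus. In nal1 it had 5.90, 5.58 and 6.54 CPM, against 7.49, 6.51 and 6.80 CPM in Sebastian. All blf13 libraries lay over 3 times above the other 9, which stood close together. The log2 fold change of blf13 over Bonus was 2.21 (SE 0.10).

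The other gain chosen by level was HORVU.MOREX.r3.5HG0444260, at place 365. It had 7.19, 8.48 and 7.45 CPM in blf13, and no count in any library of Bonus, nal1 or Sebastian. In these data it was therefore detected in blf13 alone. Against a floor of 3 counts over the 3 Bonus libraries, equal to 0.0438 CPM, it was at least 174-fold higher in blf13.

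HORVU.MOREX.r3.5HG0474210, at place 1214, was the most abundant gene with a large loss. It had 0.0247 CPM, which is 1 count, in blf13 replicate 1 and no count in the other two blf13 libraries, against 54.0, 43.9 and 61.3 CPM in Bonus. It was also at or near 0 in the other background, with 1 count over the nal1 libraries and none over those of Sebastian. Bonus was thus the only genotype of the 4 with more than 1 count over its libraries.

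HORVU.MOREX.r3.5HG0441260, at place 264, had the same pattern at a lower level. It had 2 counts over the blf13 libraries, all in replicate 1, against 8.04, 9.76 and 8.32 CPM in Bonus. In nal1 it had 1 count and in Sebastian none. The ratio of blf13 to Bonus was 0.00235, with a 95% counting interval of 0.000284 to 0.00852, which like all such intervals and floors here covers counting error only.

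The remaining gains were mostly genes with little or no signal outside blf13. In all, 5 of the 9 gains (places 140, 221, 365, 645 and 646) had a mean of at most 0.1 CPM in Bonus, in nal1 and in Sebastian. Of these, 3 had no count in any of those 9 libraries. Place 221 had 1.21, 1.05 and 0.769 CPM in blf13, at least 23.6-fold above the Bonus floor. Place 140 had 1.16, 1.23 and 1.78 CPM in blf13, against 0.0506, 0 and 0.0465 CPM in Bonus. Both were low genes: the median level of the 9 gains in blf13 was 2.39 CPM, with a range of 1.01 to 29.0 CPM. The median over all 1389 genes, taken in the higher of blf13 and Bonus, was 10.8 CPM.

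The remaining losses were mostly genes at a similar level in every genotype but blf13, where they were low or absent. Of the 10 losses, 2 had no count in blf13. In 8 of the 10 losses the Sebastian mean and the nal1 mean were both within 2-fold of Bonus, on a log2 scale with 0.25 CPM added. Place 777 had 0.0247, 0.0724 and 0 CPM in blf13, against 8.44, 6.93 and 8.50 CPM in Bonus. In nal1 it had 7.98, 7.82 and 6.49 CPM, against 6.11, 7.80 and 7.79 CPM in Sebastian. The 3 blf13 libraries thus lay apart from 9 libraries that overlapped one another. The ratio of blf13 to Bonus was 0.00395, with a 95% counting interval of 0.000811 to 0.0116. The median level of the 10 losses in Bonus was 4.78 CPM.

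**Figure D2:**
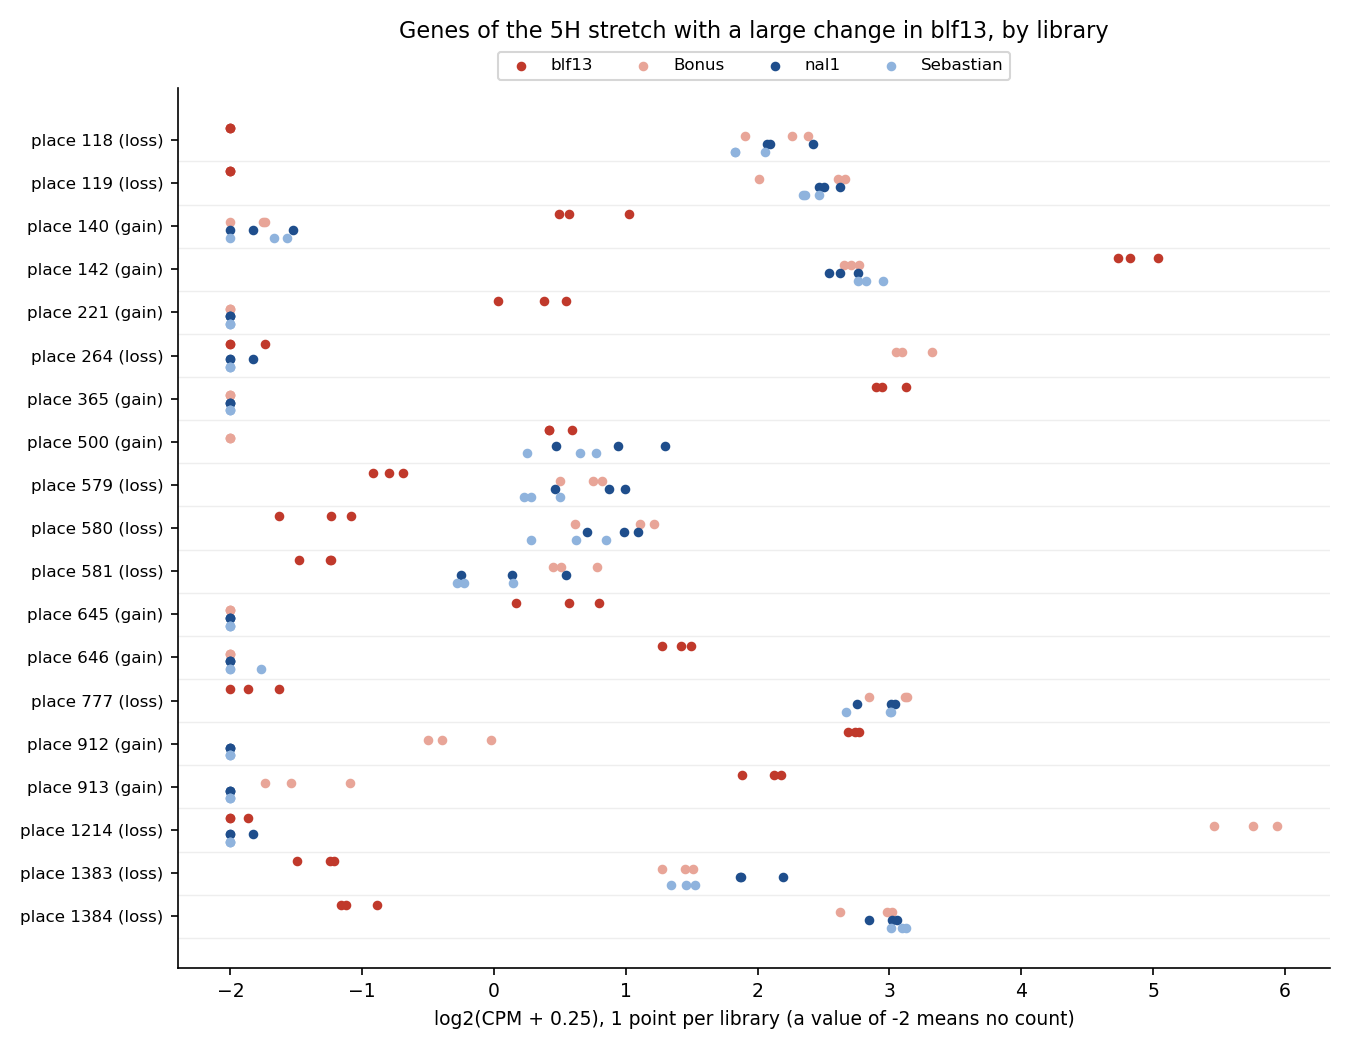
Levels of the 19 genes with a large change in blf13, as log2(CPM + 0.25) with 1 point per library, genes in ID order from top to bottom and 3 libraries for each genotype. In most rows the 3 blf13 points stand alone and Bonus, nal1 and Sebastian share a level, while at places 264, 500 and 1214 the Bonus points stand alone.

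Neighbours with large changes moved in 1 direction. Of the 19 genes, 11 had a gene with a large change of the same direction directly before or after them among tested genes, and 8 had none. These 11 fell into 5 groups, and of 6 adjacent pairs in which both genes had a large change, 6 had the same direction. Over all tested genes there were 9 such pairs, 9 of them with the same direction. The files give no coordinates, so whether neighbours are gene copies or parts of 1 transcript was not tested.

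Places 118 and 119, with consecutive IDs, were the pair with the deepest loss. Neither had a count in blf13. Place 118 had 4.55, 3.48 and 4.97 CPM in Bonus, and place 119 had 6.07, 3.78 and 5.86 CPM. By a floor of 3 counts over the blf13 libraries, place 118 was at least 137-fold and place 119 at least 164-fold lower in blf13. Place 119 had 5.90, 5.42 and 5.26 CPM in nal1, against 4.82, 5.26 and 4.88 CPM in Sebastian, which is the Bonus level. The next tested gene, place 120, was expressed at 27.5 CPM in blf13, against 23.2 CPM in Bonus.

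Places 1383 and 1384 also had consecutive IDs and were low, but not absent, in blf13. Place 1384 had 0.198, 0.290 and 0.210 CPM in blf13, against 7.64, 5.91 and 7.85 CPM in Bonus, a log2 fold change of −4.93 (SE 0.19). Place 1383 had 0.173, 0.181 and 0.105 CPM in blf13, against 2.48, 2.16 and 2.60 CPM in Bonus (−3.92, SE 0.23). Their neighbours on both sides, places 1382 and 1385, had log2 fold changes of −0.02 and −0.03.

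The run of losses at places 579 to 581 was made of 3 consecutive IDs at low levels. The means in blf13 were 0.325 ± 0.045, 0.157 ± 0.077 and 0.152 ± 0.038 CPM in that order, against 1.37 ± 0.19, 1.75 ± 0.42 and 1.25 ± 0.19 CPM in Bonus (SD, n = 3 each). The log2 fold changes were −2.04, −3.38 and −2.98. The gene before them, place 578, had −0.96, and the gene after them, place 582, had 0.02.

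The gains at places 645 and 646 lay 2 ID steps apart and were absent or nearly absent elsewhere. Place 646 had 2.42, 2.57 and 2.17 CPM in blf13, and place 645 had 1.23, 1.48 and 0.874 CPM. Neither had a count in Bonus or nal1, and Sebastian had 1 count at place 646. The tested genes on either side, places 644 and 647, stood at 130 and 208 CPM in blf13 against 137 and 215 CPM in Bonus.

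The gains at places 912 and 913, with consecutive IDs, had counts in every Bonus library but at a much lower level. Place 912 had 6.20, 6.41 and 6.57 CPM in blf13, against 0.455, 0.734 and 0.511 CPM in Bonus. Place 913 had 4.10, 3.44 and 4.27 CPM in blf13, against 0.0506, 0.220 and 0.0929 CPM in Bonus. Neither had a count in nal1 or Sebastian. The order of genotypes was therefore blf13, Bonus, then both Sebastian-background genotypes. That blf13 and Bonus did not overlap is a condition of the rule for a large change.

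Away from these groups the changes ended within a gene or so. Within 3 places of a large change there were 73 other tested genes. Of these, 69 lay within 2-fold and their median size of change was 0.14 on the log2 scale, as over all genes. The 4 exceptions were place 911 and the 3 genes just before place 118, which belong to the run described next. Across the 1388 neighbouring pairs of the stretch, the log2 fold changes of blf13 had the same sign in 53.5%, against 52.1% over all tested genes. Pearson's r of these changes was 0.23 in the stretch and 0.14 over all tested genes. In the stretch without the runs at places 95 to 117 and 450 to 456, described below, it was 0.19. Neighbouring genes are not independent of each other, and these values are a description.

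A run of 23 neighbouring genes at places 95 to 117, singled out after its values were seen, had high fitted changes that rested on 1 library. The summed level of the 23 genes was 2.59, 172 and 4.65 CPM in blf13 replicates 1, 2 and 3, against 4.25, 26.0 and 2.37 CPM in Bonus. Replicate 2 was the highest of its genotype for 23 of 23 genes in blf13 and for 23 of 23 in Bonus. The libraries of blf13 and Bonus overlapped for all 23 genes, so none counts as a large change, although 16 had a fitted change of 4-fold or more. The median log2 fold change of the run was 2.15, but −1.75 without blf13 replicate 2 and −0.08 without replicate 2 of both genotypes. The share of multimapping reads moved with the run, at 4.01% in blf13 replicate 2 and 2.18% in Bonus replicate 2, against 1.40% to 1.46% in the other libraries of both genotypes. Its part in the result was not tested.

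The same 23 genes summed to 3.96, 2.49 and 2.65 CPM in nal1, against 21.7, 9.99 and 15.3 CPM in Sebastian. All nal1 sums lay below all Sebastian sums, and the median log2 fold change was −2.21. The share of multimapping reads moved with the run here too, and its part was not tested. It was lower in each nal1 library, the lowest at 1.46%, than in any Sebastian library, at 1.78%, 1.61% and 1.70% in replicates 1, 2 and 3. For single genes, 18 of 23 had no overlap between nal1 and Sebastian, where 33.9% of all tested genes had none. With edgeR's quasi-likelihood test 0 of 23 passed, with a lowest adjusted p of 0.0543 and 1 gene at an unadjusted p under 0.05. With DESeq2 0 passed as well, among 12 that it gave an adjusted p. Left-out libraries gave 0 to 3 passing genes, the highest number without blf13 replicate 2, which enters this comparison only through the shared estimate of spread and the scaling.

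**Figure D3:**
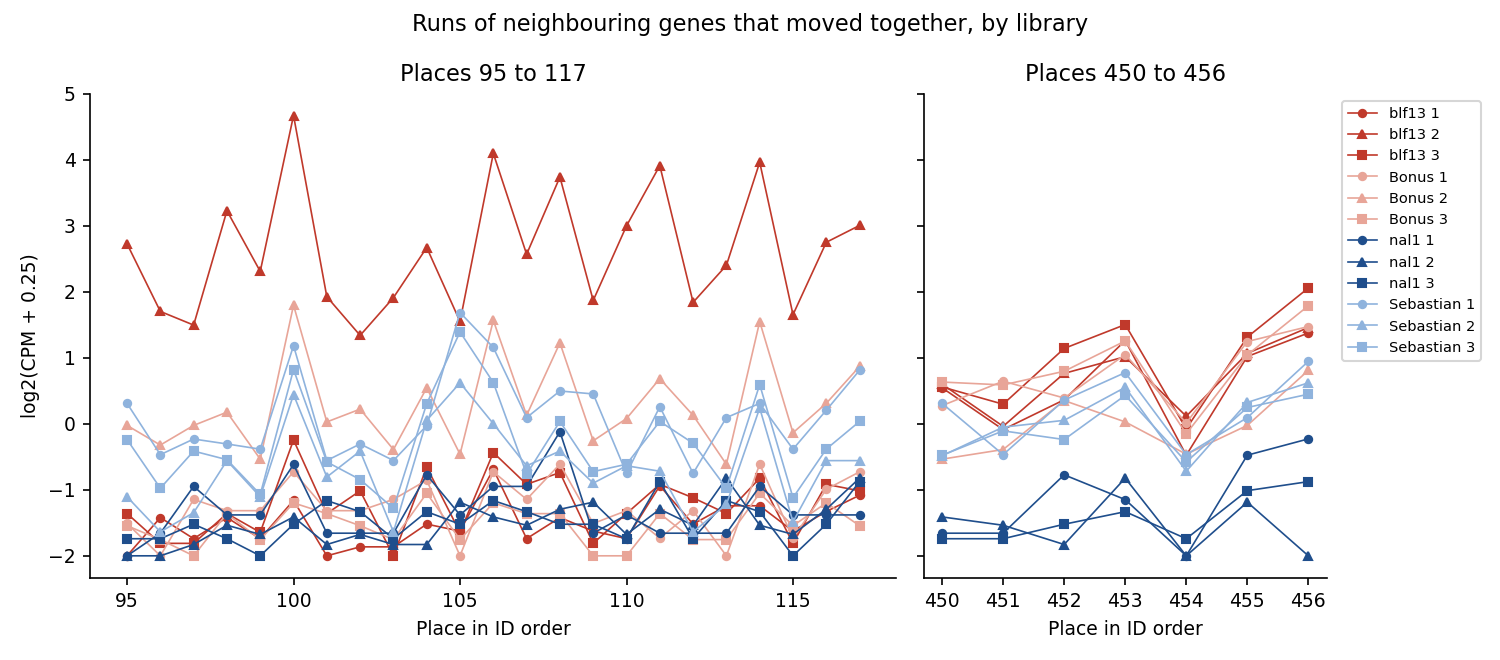
Levels along the runs at places 95 to 117 and 450 to 456, as log2(CPM + 0.25), with 1 line per library and marker shape for the replicate number. Replicate 2 of blf13 lies far above all other lines across most of the first run, and the 3 nal1 lines lie below the 3 Sebastian lines in the second.

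The comparison of nal1 with Sebastian shares no library with the one that chose the stretch, and it asks whether the same genes respond in the second mutant. In the edgeR quasi-likelihood test, 156 of the 1389 genes (11.2%) had an adjusted p under 0.05, against 11.5% of all tested genes. Of these, 56 rose in nal1 (4.03%, against 6.12% of all tested genes) and 100 fell (7.20%, against 5.42%). Whether either share differs from that of other genes was not tested. The rises had a median size of 0.63 on the log2 scale and the falls of 0.27. The counts rest on single libraries: without nal1 replicate 2 or 3 there were 31 and 27 rises and 39 and 39 falls, and without Sebastian replicate 2 or 3 there were 25 and 19 rises and 38 and 36 falls. Changed genes were spread over the whole stretch, from 7.29% of the tested genes in the first of the 10 bins to 15.0% in the fourth.

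The fall with the smallest p was that of HORVU.MOREX.r3.5HG0433990, at place 84. It had 3.29, 3.22 and 3.39 CPM in nal1, against 18.7, 17.8 and 19.2 CPM in Sebastian, which is −2.50 on the log2 scale (SE 0.09, adjusted p = 4.11e-09 with edgeR). In the other background it was on the opposite side, with 33.3, 33.6 and 32.5 CPM in blf13 against 17.3, 15.3 and 18.6 CPM in Bonus. HORVU.MOREX.r3.5HG0475790, at place 1265, was abundant and fell by less. It had 122, 111 and 119 CPM in nal1, against 169, 176 and 172 CPM in Sebastian (−0.55, SE 0.05, edgeR adjusted p = 5.97e-05).

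The rises with the smallest p were those of HORVU.MOREX.r3.5HG0470090 and HORVU.MOREX.r3.5HG0471140, at places 1080 and 1122. HORVU.MOREX.r3.5HG0470090 had 54.9, 55.7 and 48.5 CPM in nal1, against 16.3, 22.5 and 17.7 CPM in Sebastian (1.49, SE 0.13, edgeR adjusted p = 5.41e-05). It stood lower in blf13, at 9.43, 10.9 and 10.6 CPM, than in Bonus, at 13.6, 19.1 and 13.4 CPM. HORVU.MOREX.r3.5HG0471140 had 13.5, 11.7 and 16.0 CPM in nal1, against 4.86, 5.87 and 4.98 CPM in Sebastian (1.39, SE 0.14, edgeR adjusted p = 0.000103). It too stood lower in blf13, at 2.25, 2.46 and 2.62 CPM, than in Bonus, at 3.59, 4.11 and 3.02 CPM. In all 4 genes the nal1 and Sebastian libraries did not overlap. The same held for 55 of the 56 called rises, all 100 called falls and 33.9% of all tested genes.

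Of the pairs of neighbouring genes in the stretch, 28 had both genes called in nal1, and 18 of these moved in the same direction. Over all tested genes 223 of 367 such pairs did. The pairs within the run described next are among the 18. At places 450 to 456, a run of 7 neighbouring genes within 8 consecutive IDs that was singled out after its values were seen, 7 of 7 genes fell. Their summed level was 1.74, 0.757 and 0.934 CPM in nal1, against 6.93, 5.83 and 5.32 CPM in Sebastian. In blf13 it was 9.68, 10.4 and 13.6 CPM, against 10.6, 5.47 and 11.8 CPM in Bonus, and these overlapped. The log2 fold changes of nal1 over Sebastian ran from −4.44 to −1.73, with edgeR adjusted p from 0.00290 to 0.0256. Without nal1 replicate 2 or 3, 4 and 3 of the 7 genes passed, and without Sebastian replicate 2 or 3, 5 and 5, with all 7 lower in nal1 each time. Runs of at least 4 neighbouring genes with a 2-fold or larger fitted change of 1 sign numbered 16 over all tested genes in nal1, 3 of them in the stretch. They numbered 8 in blf13, 2 of them in the stretch, and the first run above accounts for both of these and for 2 of the 3. Over the 1388 neighbouring pairs of the stretch, which share all libraries, Pearson's r of the nal1 log2 fold changes was 0.41. It was 0.19 over all tested genes, where no run was left out. In the stretch without the runs at places 95 to 117 and 450 to 456 it was 0.05.

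Of the 19 genes with a large change in blf13, 1 passed the nal1 test, which 11.5% of all tested genes passed. This gene was the loss at place 1383. It had 3.42, 4.32 and 3.39 CPM in nal1, against 2.50, 2.29 and 2.63 CPM in Sebastian (log2 fold change 0.59, SE 0.16, edgeR adjusted p = 0.0296). Of the other 18, those without counts in nal1 and Sebastian showed no rise in nal1, and a fall could not have been seen there. By the size rule used for blf13, 9 genes of the stretch had a large change in nal1 (0.648%, against 0.352% of all tested genes). Of these, 1 was higher (0.0720%, against 0.111%) and 8 were lower (0.576%, against 0.241%). Among the lower genes, places 100, 105, 106 and 114 lie in the run at places 95 to 117, where 0 of 23 genes passed the edgeR test. Places 453 and 456 lie in the run at places 450 to 456.

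Whether the large changes match the other cultivar was read from the levels in Sebastian and nal1. Sebastian was set on the blf13 side or the Bonus side of the midpoint between both, on the log2(CPM + 0.25) scale. It was on the blf13 side for 1 of 9 gains and 2 of 10 losses, and nal1 was on that side for the same numbers of genes. The gain was HORVU.MOREX.r3.5HG0448520 at place 500, and the losses were HORVU.MOREX.r3.5HG0474210 and HORVU.MOREX.r3.5HG0441260, described above. HORVU.MOREX.r3.5HG0448520 had 1.09, 1.09 and 1.26 CPM in blf13 and no count in Bonus. It had 2.21, 1.14 and 1.67 CPM in nal1, against 1.46, 1.32 and 0.937 CPM in Sebastian. At these 3 genes Sebastian and nal1 were each within 2-fold of blf13, and Bonus stood apart.

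For the other 16 genes blf13 did not have the level of the other cultivar. On the log2(CPM + 0.25) scale, Sebastian was within 2-fold of Bonus for 7 of the 9 gains and 8 of the 10 losses. It was near neither genotype for 1 gain, place 912, where it had no count. Of the 7 gains, 5 had at most 0.1 CPM in both cultivars, so the added 0.25 CPM sets their closeness. Place 913 had 0.121 CPM in Bonus and no count in Sebastian. Place 142 had 6.29 CPM in Bonus and 6.94 CPM in Sebastian. Outside the stretch, Sebastian was on the blf13 side for 0 of 3 gains on the rest of 5H, and for 4 of 27 gains and 5 of 8 losses on the other chromosomes. The midpoint contains the Bonus libraries that also helped to choose these genes, and no test was made.

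The cultivars themselves differed strongly at 56 genes of the stretch (4.03%, against 2.94% of all tested genes). These were genes with a 4-fold or larger fitted difference between Sebastian and Bonus, no shared range of libraries and a mean of 1 CPM or more in the higher cultivar. In Sebastian 30 were higher (1.45% of all tested genes were so) and 26 lower (1.49%). At each of them blf13 was set on the side of the cultivar it was nearer to. It was on the Bonus side at 52 of the 56 and on the Sebastian side at 4 (7.14%). On the rest of 5H it was nearer to Sebastian at 1 of 67 (1.49%), and on the other chromosomes at 16 of 537 (2.98%). The nal1 mutant was nearer to Sebastian at 55 of 56. Comparisons of blf13 and of Sebastian with Bonus share the Bonus libraries, so these counts are a description. The stretch was also chosen for large blf13 changes, and 3 of its 4 genes on the Sebastian side are such changes. Its share of 7.14% therefore describes that choice in part and is no finding against the other shares.

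The 4 genes on the Sebastian side were scattered, not adjacent. They were places 105, 264, 500 and 1214, and 3 of them are large changes already described. The fourth, HORVU.MOREX.r3.5HG0436230 at place 105, lies in the run of 23 genes and rests on 1 library. It had 0.0741, 2.68 and 0.0699 CPM in blf13, against 0, 0.477 and 0.0465 CPM in Bonus. It had 0.134, 0.189 and 0.0983 CPM in nal1, against 2.97, 1.29 and 2.38 CPM in Sebastian (edgeR adjusted p = 0.0543). Without blf13 replicate 2, 3 genes were on the Sebastian side.

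Between the first and the last large change, 51 genes differed strongly between the cultivars, and blf13 was on the Bonus side at 48 of them. Only place 141, between the gains at 140 and 142, lay directly beside a large change without being one. It averaged 6.90 CPM in blf13 and 5.32 CPM in Bonus, against 0.0492 CPM in nal1 and 0.0460 CPM in Sebastian. Runs of cultivar differences also kept the Bonus state in blf13. At places 525 to 527, blf13 had 6.65, 11.1 and 42.0 CPM and Bonus 3.83, 10.3 and 37.8 CPM, where Sebastian had no count, no count and 0.0676 CPM. At places 507 and 508 it was the other way round, with at most 1 count in blf13 and none in Bonus, against 3.67 and 1.82 CPM in Sebastian.

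**Figure D4:**
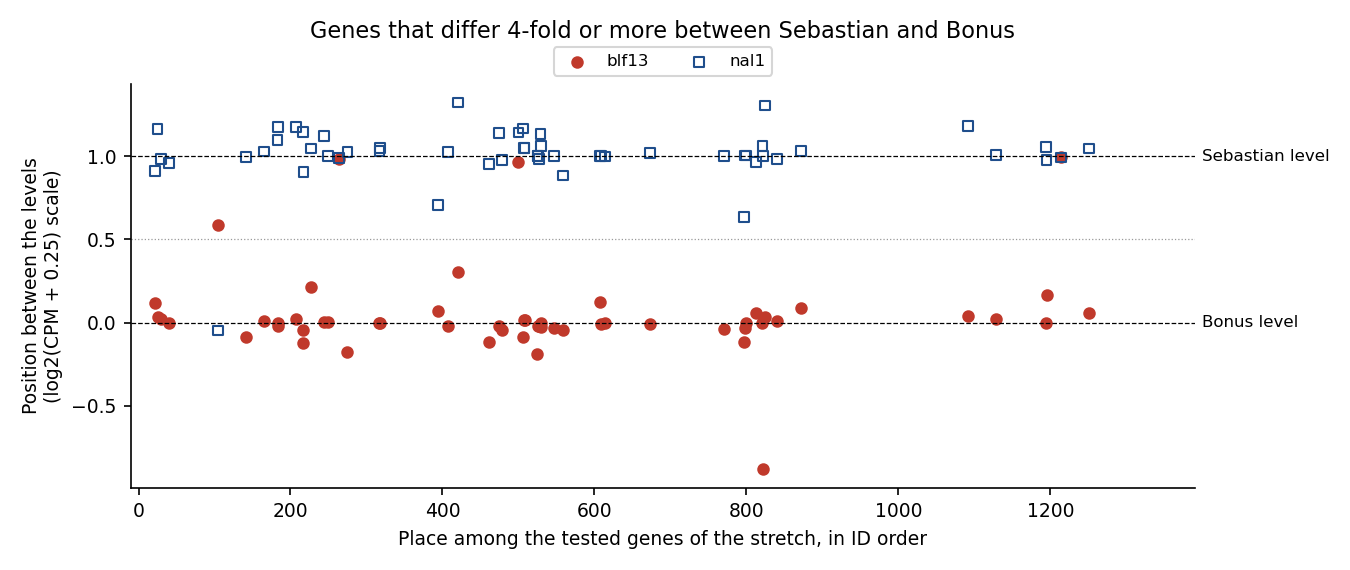
Position of blf13 (filled circles) and nal1 (open squares) between the Bonus level (0) and the Sebastian level (1) on the log2(CPM + 0.25) scale, at the 56 genes of the stretch that differ 4-fold or more between the cultivars, in ID order. At 52 genes blf13 lies nearer to Bonus, and at 55 genes nal1 lies nearer to Sebastian.

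Further genes met the 4-fold limit of a large change but failed at least 1 of its other conditions. Place 822 had a log2 fold change of −5.27 but reached only 0.583 CPM in Bonus, and stood at 0.0121 CPM in blf13. Its levels were 2.83 CPM in nal1 and 2.84 CPM in Sebastian. In all, 28 genes had a fitted change of 4-fold or more and were not counted, 16 of them in the run of 23. Several of the others rested on almost no counts. Places 184 and 206, for example, had 1 and 2 counts in Bonus and 0 in blf13. By the edgeR test over all genes, 56 genes of the stretch differed between blf13 and Bonus (3.19% of all tested genes did): 23 were called higher in blf13 (1.66%, against 1.21% of all tested genes) and 33 lower (2.38%, against 1.98%), counts that describe the comparison the stretch was chosen on. Same-numbered libraries of blf13 and Bonus deviated together, and with a replicate block within each cultivar the counts were 27 higher and 15 lower. Single libraries moved them further. Leaving out blf13 replicates 1, 2 and 3 in turn gave 16, 14 and 41 higher genes, and 12, 15 and 61 lower ones. Leaving out Bonus replicates 1, 2 and 3 gave 18, 16 and 39 higher genes, and 21, 13 and 77 lower ones. Leaving out Sebastian replicate 3 gave 21 lower genes. The counts of large changes moved less, between 8 and 12 gains and 9 and 10 losses over the 12 left-out libraries.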

How the data were processed

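The 12 libraries comprised 3 each of blf13, Bonus, nal1 and Sebastian. The authors deposited raw read counts for each gene, laid out as STAR writes them. STAR 2.7.3a appears in the submitters' processing notes. Neither build nor trimming is given in the sources used here. Per the labels, a NEBNext Ultra RNA kit was used, which does not mark strand; 50.5% to 50.7% of stranded counts fell on 1 strand, so the counts made without regard to strand (column 2) were used. Reads that map to several places are counted for no gene, so near-identical copies are undercounted, and antisense overlaps cannot be resolved. The 4 summary lines, 15.7% to 37.9% of the reads of a library, were kept out. The reference table matched 0 of 81687 IDs.

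All 22437 genes that passed filterByExpr by genotype were fitted with edgeR 4.0.16 in R 4.3.3 (TMM, quasi-likelihood F test, 1 coefficient per genotype, 12 libraries), with Benjamini-Hochberg adjustment over all of them, and checked on simulated data. Standard errors come from the F statistic. CPM use TMM library sizes. Large changes, midpoints and floors are defined with the results. Named genes are the 2 per direction with the highest level (blf13 large changes, and cultivar differences where blf13 sits with Sebastian) or the smallest p (nal1). Members, lists and rules were chosen with earlier results of these data known, and the runs at places 95 to 117 and 450 to 456 after their values were seen. Replicate pairs differed by 3.88 to 11.2 times sampling noise by chi-square per degree of freedom, so each library was counted as a sample of its own. The labels call replicates biological, and p-values measure the spread between these pools. Deviations from genotype means correlated at 0.234, 0.289 and 0.230 for equal numbers of blf13 and Bonus. For nal1 and Sebastian they correlated at −0.126, −0.0388 and 0.0944. The main fit took neither as paired, and replicate blocks were run as alternatives. The alternatives were RLE factors, cyclic loess (limma 3.58.1), DESeq2 1.42.0, no filter, 6-library fits, replicate blocks, other thresholds and each library left out.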

Additional observations from a re-analysis of the deposited data

Results flagged for a closer look

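The gene at place 1383 was lower in every blf13 library than in every Bonus library and higher in every nal1 library than in every Sebastian library. It had 0.153 ± 0.042 CPM in blf13 against 2.41 ± 0.23 CPM in Bonus, and 3.71 ± 0.53 CPM in nal1 against 2.47 ± 0.17 CPM in Sebastian (SD, n = 3 each). The log2 fold changes were −3.92 in blf13 and 0.59 in nal1. The difference between both effects was not tested, since the blf13 comparison chose the stretch.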

How the results depend on the processing

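The 9 large gains and 10 large losses kept counts of 7 to 15 and 8 to 11 under the other settings. There were 15 gains at a 2-fold threshold, where Sebastian was on the blf13 side for 5 and nal1 for 6 large changes, and blf13 was on the Sebastian side at 9 cultivar differences. Without the low-count filter, 110 members were called higher and 64 lower in blf13, and 92 higher in nal1. The 33 members called lower in blf13 became 15 with a replicate block within each cultivar, 24 with a plain replicate block, 19 with cyclic loess and 59 with DESeq2. In the fit to 6 libraries 15 were called higher and 10 lower in blf13. Without both number 2 libraries of blf13 and Bonus, an alternative added after the data were seen, 14 were called higher and 11 lower. The cause of these shifts was not tested. Over the 12 left-out libraries the called counts ranged from 14 to 41 higher and 12 to 77 lower in blf13, and from 19 to 71 higher and 36 to 124 lower in nal1. The main fit took no replicate numbers as paired, and for nal1 a plain replicate block gave 56 rises and 107 falls. No log2 fold change of a named gene changed sign, and the 4 genes named for nal1 passed the test under each of 20 settings (adjusted p up to 0.00143). Fitted changes of genes with no or 1 to 3 counts in a genotype moved with the setting, as between −13.52 and −11.45 for HORVU.MOREX.r3.5HG0474210 in blf13. Levels under 0.2 CPM rest on a few counts per library.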
